A study of Homo sapiens with 24 samples.

Results

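MV4-11 is a long-established line of human acute myeloid leukaemia cells. Of the transcripts quantified in it, 3944 are annotated in GENCODE release 29 as substrates of nonsense-mediated decay and reached 1 CPM (counts scaled to a library total of 1000000) in at least 3 of 24 libraries. They were drawn from 15113 annotated decay transcripts, of which they are 26.1%, and from 178398 transcripts in all. The decay transcripts belong to 2756 genes, 1952 of which have 1 such transcript and 804 more than 1, and MYB, which encodes a haematopoietic transcription factor, has the most at 14. They were chosen by this annotation and by their measured level in CPM, and that level is a description and not a result. TMEM260-203 and STXBP2-214 fell just short of it, with a third-highest level of 0.9989 and 0.9991 CPM, and IFT140-202 and DXO-209 just passed it at 1.0 and 1.0001 CPM. Of the 3944 transcripts, 1575 were at 1 CPM or more in all 24 libraries, and 1 passed through libraries of a single group. The measure followed here is usage, the share of a gene's summed counts that lies on the decay transcript. Usage differences on the log2 scale are a transcript's log2 change set against that of the other transcripts of its gene. They are not the log2 ratio of the printed shares and can be larger than it.

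The cells, all labelled with both PRMT5 alleles intact, fell into 8 groups of 3 libraries. In 4 groups they were kept for 3 days with the solvent DMSO, with 3 nM PRT220, an inhibitor of the arginine methyltransferase PRMT5, with 10 nM GSK-LSD1, an inhibitor of the histone demethylase LSD1 (KDM1A), or with PRT220 and GSK-LSD1 together. MS023, which inhibits type I arginine methyltransferases, was given in 2 groups, alone and with GSK-LSD1. The last 2 groups received MC4455 or MC4491, compounds known here by their code names only. No dose or time is used for these 4 groups, because the labels at hand give none. Poly(A)-selected libraries without strand information were read at 101 bases. The labels do not say what the replicate letters A, B and C stand for, so the p-values measure the spread between these libraries, which may be technical.

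Nonsense-mediated decay is a surveillance pathway that removes messenger RNAs whose translation stops well before the last exon junction. Splicing leaves an exon junction complex upstream of each junction, and a ribosome that terminates with such a complex still ahead of it allows UPF1 to be recruited and phosphorylated by SMG1, after which further factors, the endonuclease SMG6 among them, direct cleavage and degradation. Many splicing factors, the SR proteins and hnRNPs among them, are known to limit their own level by splicing their transcripts into decay forms. PRMT5 methylates the Sm proteins of the spliceosomal snRNPs, and the share of a gene that is spliced into a decay form is therefore a readout of interest when it is inhibited. Because the libraries measure steady-state RNA, more splicing into a decay form and slower removal of it cannot be told apart, and neither was measured separately.

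The place where a decay transcript departs from the main coding transcript of its gene shows how the early stop codon arises, and the sequences below cover members whose usage differed most in the PRT220 groups, TBCK-206, which fell with MS023+GSK-LSD1 and MC4491, and called members of the SR protein and hnRNP genes. Each runs 5' to 3' on the gene's strand from 21 bases shared with the main coding transcript to the annotated stop codon, which is in capitals, read from the GENCODE release 29 transcripts on GRCh38. The second line of a pair gives the same 21 bases and what follows them in the main coding transcript.
KAT2A-202: catcctcactcacttccccaagTAA
KAT2A-201: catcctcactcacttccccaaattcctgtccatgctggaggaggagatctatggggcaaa
GGCT-207: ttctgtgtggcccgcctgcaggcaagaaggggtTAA
GGCT-202: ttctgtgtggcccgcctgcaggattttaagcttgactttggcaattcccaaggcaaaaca
TBCK-206: tgatgttgatttcccaataggtatgTGA
TBCK-204: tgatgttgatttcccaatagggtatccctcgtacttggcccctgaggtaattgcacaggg
SRSF7-208: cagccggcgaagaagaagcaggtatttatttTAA
SRSF7-201: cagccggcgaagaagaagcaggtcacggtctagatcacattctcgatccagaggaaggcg
YDJC-203: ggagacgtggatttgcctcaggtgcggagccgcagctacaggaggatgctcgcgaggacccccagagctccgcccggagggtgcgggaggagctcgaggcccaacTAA
YDJC-201: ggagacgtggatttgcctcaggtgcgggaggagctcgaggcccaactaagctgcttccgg
ACAD9-206: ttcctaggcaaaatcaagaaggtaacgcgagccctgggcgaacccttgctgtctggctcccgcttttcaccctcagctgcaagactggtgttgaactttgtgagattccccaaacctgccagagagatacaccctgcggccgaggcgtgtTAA
TRA2B-206: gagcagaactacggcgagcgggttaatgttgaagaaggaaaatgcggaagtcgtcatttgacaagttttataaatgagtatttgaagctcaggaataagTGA
SRSF6-202: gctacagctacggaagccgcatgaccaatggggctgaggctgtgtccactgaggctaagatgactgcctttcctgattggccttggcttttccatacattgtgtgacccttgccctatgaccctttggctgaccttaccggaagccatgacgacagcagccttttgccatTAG
HNRNPH1-218: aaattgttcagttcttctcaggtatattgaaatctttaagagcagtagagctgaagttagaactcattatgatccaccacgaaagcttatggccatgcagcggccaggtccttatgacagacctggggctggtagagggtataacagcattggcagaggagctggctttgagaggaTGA
EEF2K-204: gccagaagctagaccacctccgtgagTGA
In KAT2A-202 the exon runs on past its usual end and meets a stop codon within 4 bases, at chr17:42119241-42119243 on the minus strand. In SRSF7-208 and ACAD9-206 the same kind of extension adds 13 and 132 bases up to the stop codon, which lies at chr2:38749516-38749518 and chr3:128879971-128879973. TBCK-206, TRA2B-206 and SRSF6-202 carry an exon of 101, 276 and 268 bases that the main coding transcript lacks, with the stop codon inside it, at chr4:106255041-106255043, chr3:185931772-185931774 and chr20:43459302-43459304. In GGCT-207 the bases up to the stop codon at chr7:30498924-30498926 all lie in the main coding transcript and are read in another frame. The stop codon of TRA2B-206 is also that of another coding transcript. YDJC-203 uses 87 bases from the departure to its stop codon at chr22:21629380-21629382, of which 59 are not in the main coding transcript.

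Most decay transcripts were minor forms of their gene. The median mean level was 1.85 CPM (quartiles 0.954 and 4.76, highest 673), and the median mean share of the gene was 4.0% (quartiles 1.52% and 11.5%). A share below 1% was held by 653 of them and a share above 50% by 188, and 309 were the most counted transcript of their gene. RPS3-218, from the gene of a protein of the small ribosomal subunit, was the most abundant at 673 CPM and 39.4% of its gene, followed by HNRNPA1-205 at 270 CPM and 19.6% (HNRNPA1 is a splicing repressor). DAZAP2-203 stood at 75.8%, PTDSS1-201 (a phosphatidylserine synthase gene) at 60.9%, PDIA3-202 (an endoplasmic reticulum disulfide isomerase) at 58.3% and QKI-204 (an RNA-binding splicing regulator) at 47.5% of their genes. These shares are estimates by a model that divides reads among overlapping transcripts, and 1090 of the 3944 were listed at 0 in 1 library and above 0 in another of the same group. The mean within-group SD of the share had a median of 1.13 percentage points.

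Nearly all decay transcripts had the structure that defines them. Of 3937 decay transcripts with a stop codon annotated, 3921 had it at least 50 bases before the last exon junction. The median distance to that junction was 545 bases (quartiles 239 and 1160), and a median of 4 junctions followed the stop codon, with 694 transcripts having exactly 1. The median transcript had 2020 bases, 9 exons and 360 coding bases. Support from aligned cDNAs was of level 1 or 2, the best grades, for 2165 and of level 5, the weakest, for 1010. By the origin of the stop codon, 1872 (47.5%) read bases of the main coding transcript in a changed frame, 896 (22.7%) had the stop in an inserted exon, 499 (12.7%) in an exon extended into an intron, and 439 (11.1%) shared the stop codon of a coding transcript but had a junction after it. The remaining 127, 104 and 7 had the stop outside the span of the main coding transcript, no coding transcript measured, or no stop annotated.

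Library totals ran from 32495446 to 61090593 counts, and 96.6% to 96.8% of each could be paired with the annotation. All 8 myeloid marker genes were present (median 9.19 to 1114 CPM over the libraries), and of 8 markers of other cell types 1 had a median of 1 CPM or more, the highest being 1.61. RRP9, a gene of the U3 snoRNP, separated the libraries in a way the labels do not explain: it stood at 0.677 to 1.73 CPM in 8 libraries (DMSO C, all 3 of PRT220, PRT220+GSK-LSD1 C, MS023 A and C, and MS023+GSK-LSD1 B) and at 29.1 to 36.2 CPM in the other 16. All 3 PRT220 libraries are of the low kind, so within those and DMSO alone only DMSO C separates the split from the treatment. PRT220+GSK-LSD1, MS023 and MS023+GSK-LSD1 also hold libraries of both kinds and enter the term for the split, with which each count below was also obtained.

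Usage was tested with limma's diffSplice, which asks whether a transcript's change differs from that of the rest of its gene, for 3857 of the 3944 decay transcripts within a fit of 74228 transcripts, and a call is an adjusted p below 0.05. In each of 10 comparisons the share of decay transcripts called was above the share of all transcripts called, but the decay transcripts had passed a filter on level that the background had not. Protein-coding transcripts at the same level were called more often than decay transcripts in 9 of the 10 comparisons, the interaction being the exception (1.02% against 1.22%), and retained-intron transcripts less often in all 10. With PRT220 the shares called were 7.20% of protein-coding, 5.52% of decay and 4.76% of retained-intron transcripts, and these differences between classes were not tested. With PRT220, 96 decay transcripts were used more and 117 less than in DMSO, 5.52% of those tested against a background of 4.16% of all transcripts (2.16% higher and 2.00% lower). Their median usage difference was -0.051 on the log2 scale, against -0.011 for all transcripts. Of 9733 retained-intron transcripts tested in the same fit, 373 were used more and 90 less. edgeR's diffSpliceDGE called 111 decay transcripts with PRT220, and 57 were called by both tools. With the RRP9 term limma called 214, of which 148 were among the 213 called without it. Without DMSO B the count used more fell to 53, and without PRT220 A, B or C the count used less was 71, 64 or 60.

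**Figure D1:**
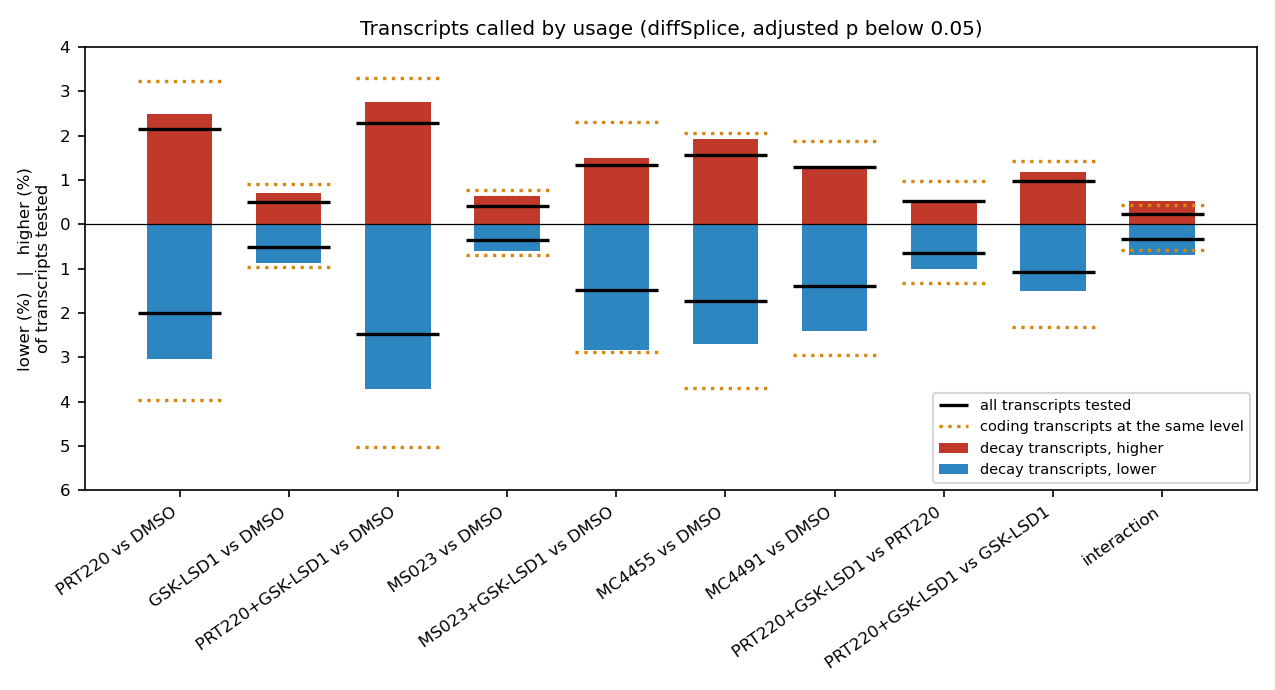
Bars give the percentage of tested decay transcripts called used more (upward) or less (downward) in each of 10 comparisons, black lines the percentage of all tested transcripts, and dotted lines that of protein-coding transcripts at the same level. The bars reach past the black lines on the lower side in every comparison, from 0.596% against 0.356% with MS023 to 3.71% against 2.48% with PRT220+GSK-LSD1, and on the higher side MC4491 has 1.30% against 1.29%, while the dotted lines lie beyond the bars in 9 of 10 comparisons.

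Falls with PRT220 that both tools called included YDJC-203, KAT2A-202 and ACAD9-206. YDJC-203 (ENSG00000161179, chr22:21628089-21630064, minus strand, support level 1), whose extra bases before the stop codon are printed above, took 38.1%, 32.9% and 40.9% of its gene in DMSO and 14.7%, 16.1% and 9.85% with PRT220. The groups were well apart. Its usage fell by 1.89 on the log2 scale (SE 0.205, limma adjusted p = 5.48e-12, edgeR adjusted p = 1.18e-08), while the gene as a whole differed by -0.16 (edgeR adjusted p = 0.219). KAT2A-202 (ENSG00000108773, chr17:42113118-42121058, minus strand), from the gene of the histone acetyltransferase GCN5, was the main form of its gene in DMSO at 65.3%, 64.3% and 63.7% and stood at 46.1%, 48.0% and 46.2% with PRT220. All 3 treated libraries lay below all 3 controls, with a usage difference of -1.04 (SE 0.104, limma adjusted p = 7.57e-12). ACAD9-206 (ENSG00000177646, chr3:128879623-128912927, plus strand), from a gene of mitochondrial complex I assembly, went from 13.0%, 17.3% and 24.8% to 3.92%, 4.04% and 9.57%. That is a usage difference of -2.03 (SE 0.233, limma adjusted p = 7.08e-12), and the gene also fell by 0.54 (edgeR adjusted p = 6.40e-07). These 3 calls held in each of the 14 alternative fits run for this comparison.

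Gains with PRT220 that both tools called included FNTA-205, GGCT-207, BCL2L12-207 and NECAB3-213. FNTA-205 (ENSG00000168522, on chromosome 8, support level 1), from the gene of the farnesyltransferase alpha subunit, took 12.2%, 10.8% and 11.3% of its gene in DMSO and 28.5%, 27.5% and 33.9% with PRT220. Its usage rose by 1.66 (SE 0.113, limma adjusted p = 3.03e-26, edgeR adjusted p = 1.21e-20) with the gene's level at 0.04 (edgeR adjusted p = 0.404), and the call held in all 14 alternatives. GGCT-207 (ENSG00000006625, chr7:30496621-30504829, minus strand), from the gene of gamma-glutamylcyclotransferase, an enzyme of glutathione turnover, had 9.84%, 8.73% and 14.4% in DMSO and 24.2%, 27.1% and 28.6% with PRT220, a rise of 1.59 (SE 0.288, limma adjusted p = 6.07e-05). Its early stop codon leaves 121 bases and a single junction after it. LCMT1-201, from the gene that methylates the phosphatase PP2A, rose from a mean of 24.5% to 44.7%, and its limma call (adjusted p = 0.000169) was not made by edgeR (adjusted p = 0.0580). BCL2L12-207 rose from 20.7%, 19.2% and 22.7% to 34.6%, 36.4% and 33.0% (0.90, limma adjusted p = 5.02e-05, edgeR adjusted p = 0.0369), and NECAB3-213 from 21.9%, 18.9% and 19.6% to 35.1%, 33.8% and 31.7% (1.08, limma adjusted p = 0.000909, edgeR adjusted p = 0.0346). In both of these the 3 treated libraries were above all 3 controls by more than the spread within either group.

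**Figure D2:**
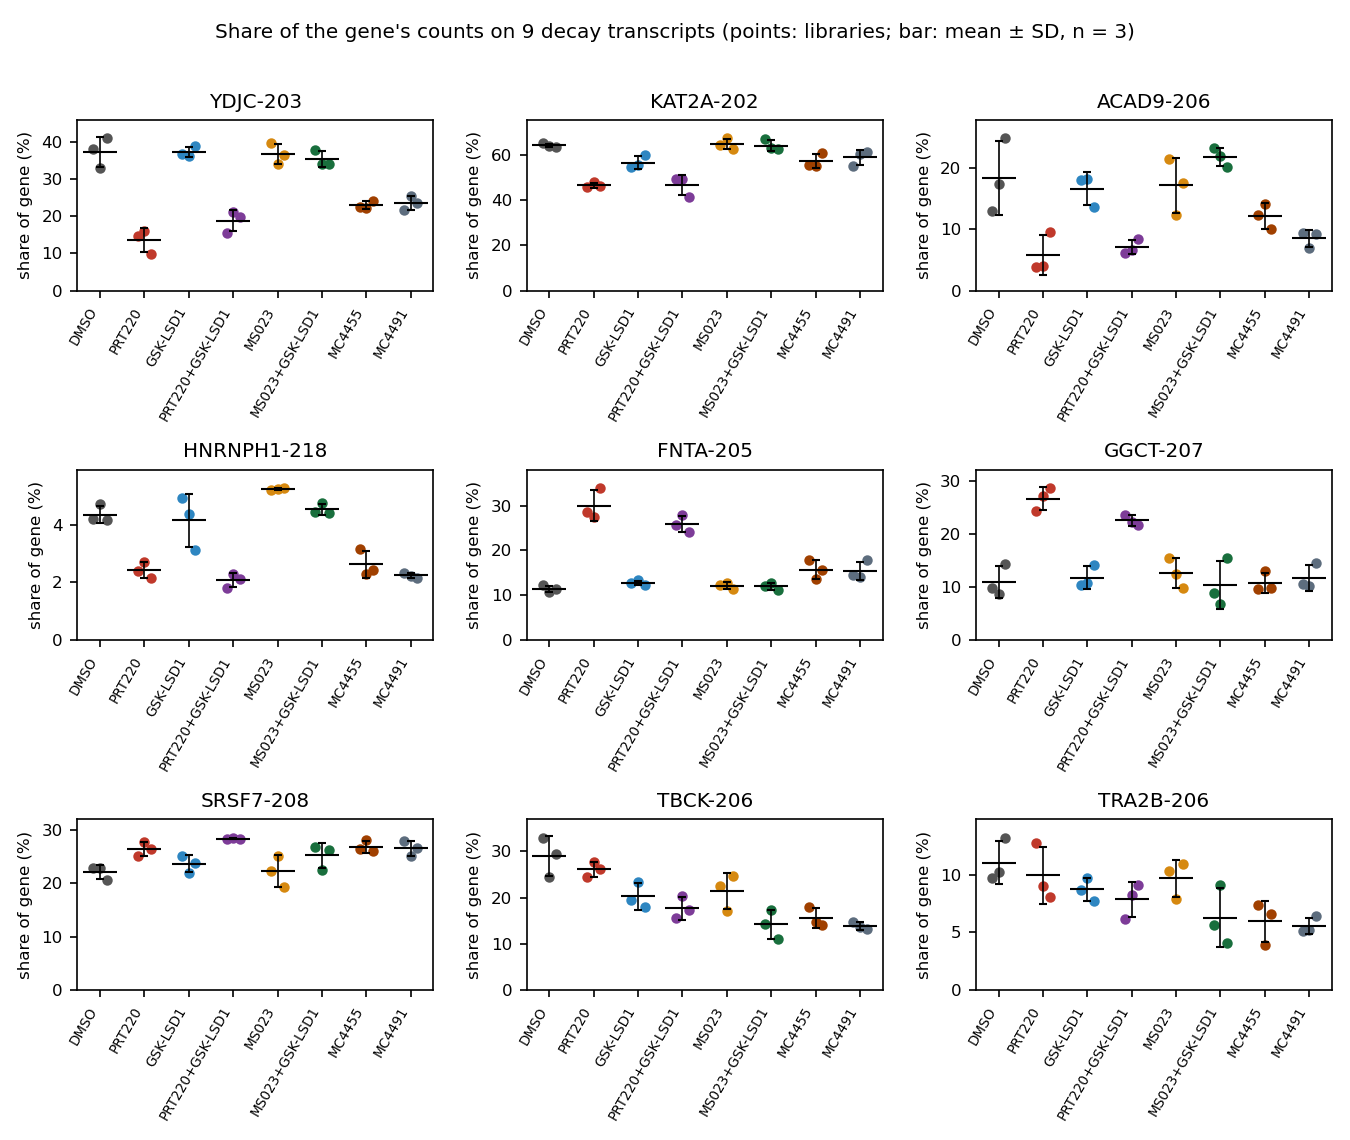
Points are the share of the gene's counts (%, y axis) on 9 decay transcripts in each library of the 8 groups (x axis), with bars for the mean ± SD (n = 3). YDJC-203, KAT2A-202, ACAD9-206 and HNRNPH1-218 lie lower and FNTA-205 and GGCT-207 higher in both PRT220 groups, TBCK-206 lies lowest with MS023+GSK-LSD1, MC4455 and MC4491, and the same is seen for TRA2B-206. With MC4455 and MC4491 the means of YDJC-203, HNRNPH1-218, ACAD9-206 (12.1% and 8.56%, DMSO 18.4%) and KAT2A-202 (57.4% and 59.1%, DMSO 64.4%) are also lower than in DMSO. FNTA-205 is higher there, and GGCT-207 has 10.8% and 11.8% (DMSO 11.0%).

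Further falls with PRT220 were called by both tools for MMP24OS-203, which went from 27.4%, 15.0% and 22.4% to 10.7%, 8.83% and 6.37% (limma adjusted p = 3.64e-06), for PPP1R21-203, from 19.9%, 27.1% and 21.4% to 8.32%, 10.5% and 9.67% (limma adjusted p = 0.000662), and for UBXN8-203 on chromosome 8. SPATA20-205 fell from a mean of 31.7% to 11.3% by limma (adjusted p = 3.07e-07), with its lowest DMSO library at 22.0% and its highest PRT220 library at 15.6%, but edgeR gave an adjusted p of 0.125. CACNB3-219 had 21.3%, 33.0% and 34.4% in DMSO and 0%, 2.54% and 16.6% with PRT220 (limma adjusted p = 0.0190, edgeR adjusted p = 0.255). ICE2-203, from a subunit gene of the little elongation complex, rose by limma from 33.5% to 50.2% (adjusted p = 7.15e-05, edgeR adjusted p = 0.0535).

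The PRT220 effect was also measured where GSK-LSD1 was present in both arms, and this second comparison shares no library with the first. Between PRT220+GSK-LSD1 and GSK-LSD1, 46 decay transcripts were used more and 58 less, 2.7% against a background of 2.05% (0.970% higher and 1.08% lower), and edgeR called 51. Of the 213 called against DMSO and the 104 called against GSK-LSD1, 38 were the same, which is 17.8% of the first list and 36.5% of the second, and 37 of them moved the same way. Of the 213, 173 (81.2%) had the same sign in the second comparison, against 64.1% of all decay transcripts tested. FNTA-205 stood at 12.8%, 13.3% and 12.4% with GSK-LSD1 and at 25.6%, 27.8% and 24.2% with both (1.17, limma adjusted p = 1.89e-14). YDJC-203 stood at 36.8%, 36.1% and 38.8% and then at 15.6%, 21% and 19.9% (-1.35, limma adjusted p = 3.05e-06). The 3 libraries with both compounds were outside the range of the GSK-LSD1 libraries in each case.

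ACAD9-206 (-1.50, limma adjusted p = 1.93e-06) and KAT2A-202 (-0.57, limma adjusted p = 0.000799) fell again. The KAT2A-202 call was lost in 2 of 14 alternatives, 1 of them the fit without PRT220+GSK-LSD1 C (limma adjusted p = 0.0745). Among the other transcripts called in both were DTYMK-202, from the gene of thymidylate kinase, with 9.63% in DMSO, 4.63% with PRT220, 8.86% with GSK-LSD1 and 4.12% with both, and UQCRH-205, from a subunit gene of respiratory complex III, with 8.89%, 3.81%, 7.70% and 4.56% in the same order. TYROBP-207, from the gene of a myeloid signalling adaptor, had 10.2%, 5.98%, 12.2% and 6.78%. The exception in sign was HSPA9-204, which was below 1% of its gene in all 4 groups (0.656%, 0.431%, 0.140% and 0.910%). Without a GSK-LSD1 library A, B or C the count used more was 29, 30 or 25, the count used less was 38 without GSK-LSD1 B or C, and it was 28 without any one of the 3 PRT220+GSK-LSD1 libraries. The number that moved the same way in both comparisons was 33 by edgeR and 55 with the RRP9 term.

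**Figure D3:**
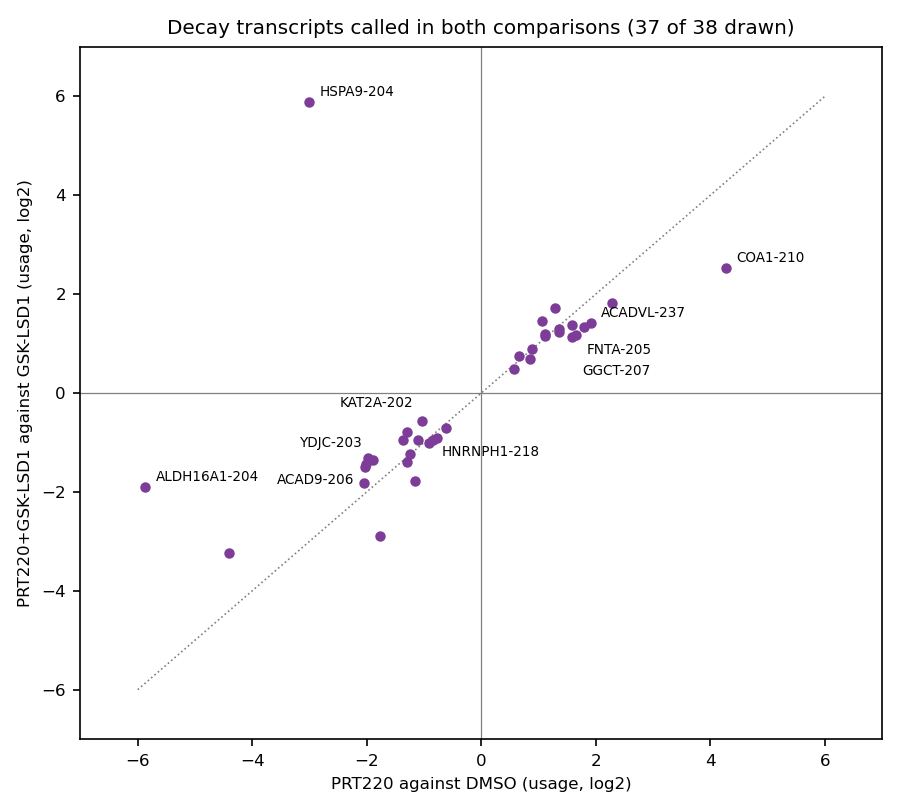
Each point is a decay transcript called in both comparisons, with its usage difference (log2) for PRT220 against DMSO on the x axis and for PRT220+GSK-LSD1 against GSK-LSD1 on the y axis, and the dotted line marks equal values. Of the 38 transcripts 37 are drawn, SUPT20H-220 being off the scale because it was listed at 0 in every GSK-LSD1 library, and HSPA9-204 is the one with opposite signs (-3.01 and 5.89).

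SUPT20H-220, from a gene of the SAGA coactivator complex, had 0%, 5.72% and 1.03% of its gene in DMSO, was listed at 0 in all 3 GSK-LSD1 libraries, and had 6.55%, 15.4% and 16.9% with PRT220 and 16.3%, 15.7% and 15.4% with both compounds. The floor of 3 counts over the 10592 counts of the gene in the GSK-LSD1 group allows a share of up to 0.0283%, so its mean of 15.8% with both was at least 558-fold higher. Such floors cover counting error only, and an estimate of 0 from a read-sharing model can also be a failed estimate. EEF2K-204, from the gene of the kinase that inhibits translation elongation factor eEF2, took 39.5%, 39.7% and 45.5% in DMSO and 64.4%, 59.5% and 68.2% with both compounds (1.27, limma adjusted p = 0.0337, edgeR adjusted p = 0.0104), although 7 of 15 alternative fits made no call. With PRT220 alone its libraries spread from 39.7% to 68.8%, across the range of both those groups.

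With PRT220 and GSK-LSD1 together, 106 decay transcripts were used more than in DMSO and 143 less, 6.46% against a background of 4.77% (2.29% higher and 2.48% lower). The median was -0.057, against 0.038 for all transcripts, and edgeR called 132, of which 74 were also called by limma. YDJC-203 (-1.31, limma adjusted p = 1.57e-06), KAT2A-202 (-1.01, 2.02e-10) and FNTA-205 (1.36, 1.30e-18) were called here too, against the same DMSO libraries as PRT220 alone. HIST1H2AC-201, from a gene of histone H2A, had 1.82%, 2.01% and 2.55% in DMSO and 7.54%, 28.9% and 15.9% with both (3.06, limma adjusted p = 0.000708, edgeR adjusted p = 0.00210). Leaving out DMSO A, B or C gave 69, 54 or 56 used more, and leaving out PRT220+GSK-LSD1 A, B or C gave 67, 84 or 89 used less.

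The calls were also counted by the origin of the stop codon. With PRT220, 4.16% of all transcripts were called (2.16% higher and 2.00% lower, median -0.011), and 5.52% of all decay transcripts. With PRT220, transcripts whose stop codon lies in an inserted exon were called used more in 12 and less in 32 of 891 tested (4.94% called, median -0.115), and those with the stop in an extended exon were called used more in 19 and less in 12 of 498 (6.22%, median 0.046). The changed-frame transcripts were even, with 54 used more and 55 less of 1865 (5.84%, median -0.032), and those sharing a coding stop codon had 10 and 17 of 433 (6.24%, median -0.078). With both compounds the inserted-exon class had 11 used more and 31 less (4.71% called), against the same DMSO libraries. The extended-exon class had 24 and 18 (8.43%). The background there was 4.77% (2.29% higher and 2.48% lower, median 0.038), and 6.46% of all decay transcripts were called. The difference between classes was not tested. By edgeR the inserted-exon counts with PRT220 were 13 and 18 and the extended-exon counts 16 and 9, and with the RRP9 term they were 9 and 32, and 19 and 12. KAT2A-202, ACAD9-206, SPATA20-205 and PPP1R21-203, which fell with PRT220, are of the extended-exon class.

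**Figure D4:**
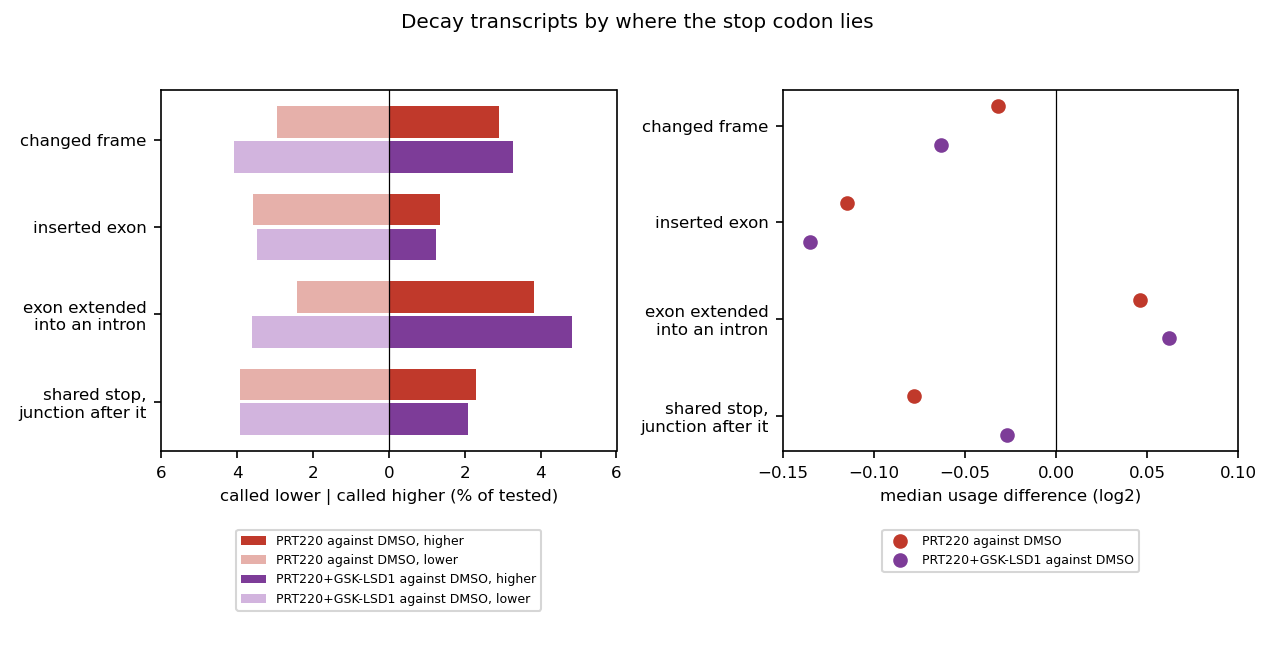
Left, the percentage of tested decay transcripts called used less (leftward) or more (rightward) for 4 origins of the stop codon, with PRT220 and with PRT220+GSK-LSD1 against DMSO; right, the median usage difference (log2) of each class. The extended-exon class has positive medians (0.046 and 0.062) and the other 3 classes negative ones. The medians of all transcripts tested were -0.011 and 0.038.

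GSK-LSD1 alone changed few decay transcripts. By limma 27 were used more and 34 less, 1.58% against a background of 1.02% (0.513% higher and 0.503% lower), but edgeR called 7 and both tools 3. At gene level edgeR called 32.6% of 16640 genes in the same comparison. The median usage difference was -0.033, against 0.018 for all transcripts. MYO18A-207 (ENSG00000196535, chr17:29073521-29140379, minus strand, support level 1), a form of an unconventional myosin gene with 39 junctions after its stop codon, was the main form of its gene in DMSO at 71.5%, 73.4% and 68.2% and fell to 55.7%, 47.2% and 52.8% (-1.04, SE 0.193, limma adjusted p = 0.000177, edgeR adjusted p = 0.00338). It was also lower with MS023+GSK-LSD1 at 55.5%, 56.7% and 52.2% (limma adjusted p = 0.000512) and with PRT220+GSK-LSD1 at 60.4%, 56.1% and 57.9% (limma adjusted p = 0.00423). The 9 libraries that received GSK-LSD1 ran from 47.2% to 60.4%, and the lowest of the other 15 was MC4455 C at 63.0%.

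CIITA-217 (ENSG00000179583, chr16:10922167-10943021, plus strand), from the gene of the class II transactivator that switches on MHC class II genes, fell from 11.5%, 8.68% and 10.1% of its gene to 2.90%, 2.16% and 3.50% with GSK-LSD1 (-1.96, SE 0.260, limma adjusted p = 1.33e-08, edgeR adjusted p = 1.15e-10). Here the whole gene rose by 1.6 (edgeR adjusted p = 2.37e-12) and the decay transcript itself went only from 3.84 to 3.27 CPM, so the lower share came with more of the other transcripts. MYO18A-207 and CIITA-217 kept their calls in all 14 alternatives. KAT2A-202 fell from 64.4% to 56.8% (limma adjusted p = 0.0205), a call that edgeR did not make (adjusted p = 0.625) and that 7 of 14 alternatives lost. Without DMSO A, B or C the count used more was 9, 6 or 7, and without GSK-LSD1 A, B or C the count used less was 16, 13 or 13.

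Added to PRT220, GSK-LSD1 gave 21 decay transcripts used more and 39 less than PRT220 alone, 1.56% against a background of 1.17% (0.515% higher and 0.651% lower), with 16 called by edgeR and 5 by both tools. MYO18A-207 fell again, from 75.4%, 76.6% and 71.3% with PRT220 to 60.4%, 56.1% and 57.9% with both (-0.91, limma adjusted p = 0.000946, edgeR adjusted p = 0.0414), in libraries not used for GSK-LSD1 against DMSO. Of the 61 and 60 transcripts called in these separate GSK-LSD1 comparisons 4 were the same (6.56% and 6.67%), and 57.4% of the 61 had the same sign in the second, as did 57.4% of all decay transcripts. KMT2C-212, from the gene of a histone H3 lysine 4 methyltransferase, had 40.5%, 33.8% and 50.6% with PRT220 and 21.7%, 27.5% and 25.7% with both (-1.13, limma adjusted p = 0.000929, edgeR adjusted p = 0.0211). Without PRT220 A, B or C the count used more was 6, 7 or 10, and without PRT220+GSK-LSD1 A, B or C the count used less was 13, 20 or 22. The interaction of the 2 compounds called 20 more and 27 less, 1.22% against a background of 0.546% (0.222% higher and 0.323% lower), and edgeR called 3. The number used more was 10, 9 or 10 without PRT220 A, B or C and 11, 11 or 13 without GSK-LSD1 A, B or C, and the number used less was 10 without DMSO A and 15 without PRT220+GSK-LSD1 A or B.

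MS023 alone gave the fewest calls against DMSO, with 25 decay transcripts used more and 23 less (1.24% against a background of 0.761%, 0.406% higher and 0.356% lower), of which edgeR called 3 in all and none of the limma calls. PNPT1-202 (ENSG00000138035, chr2:55634569-55693823, minus strand), from the gene of mitochondrial polynucleotide phosphorylase, fell from 29.5%, 26.5% and 26.2% to 21.3%, 17.4% and 18.5% by limma (-0.66, adjusted p = 0.00867), and edgeR made no call (adjusted p = 0.129). Leaving out DMSO A, B or C gave 13, 9 or 10 used more, and leaving out MS023 A or B gave 10 or 14 used less. With MS023 and GSK-LSD1 together 58 were used more and 109 less (4.33% against a background of 2.82%, 1.34% higher and 1.48% lower), and edgeR called 51. PNPT1-202 was lower still at 15.5%, 13.0% and 11.3% (-1.32, limma adjusted p = 1.34e-08, edgeR adjusted p = 2.03e-09).

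TBCK-206 (ENSG00000145348, chr4:106046095-106316209, minus strand), whose extra exon is printed above, fell with MS023+GSK-LSD1 from 33.0%, 24.5% and 29.5% to 14.2%, 17.4% and 11.1% (-1.23, limma adjusted p = 0.000155, edgeR adjusted p = 1.53e-05). ALG6-209, from a glucosyltransferase gene of N-glycan assembly, fell from 39.9%, 40.2% and 42.6% to 24.4%, 27.7% and 23.2% (limma adjusted p = 0.00796, edgeR adjusted p = 0.0144). NOCT-203, from the gene of the circadian phosphatase nocturnin, rose from 12.6%, 14.9% and 21.3% to 28.3%, 27.3% and 30.9% (1.04, limma adjusted p = 0.0395, edgeR adjusted p = 0.00833). In each of these 3 transcripts the treated libraries did not overlap DMSO. MS4A4A-202 was listed at 0 in DMSO, where 3 counts of the gene's 1617 allow up to 0.186%, and had 9.33%, 10.7% and 6.34% with MS023+GSK-LSD1, at least 47.4-fold higher (limma adjusted p = 0.0111, edgeR adjusted p = 0.0681). Its mean was also 5.21% with GSK-LSD1 and 9.73% with PRT220+GSK-LSD1. In the groups without GSK-LSD1 its highest mean was 1.41%, with MC4455, and MS023 alone had 1.06%. Leaving out DMSO A, B or C gave 30, 18 or 33 used more, and leaving out MS023+GSK-LSD1 A or C gave 62 or 57 used less.

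MC4455 gave 74 decay transcripts used more and 104 less than DMSO (4.61% against a background of 3.29%, 1.57% higher and 1.73% lower), and MC4491 gave 50 and 93 (3.71% against a background of 2.69%, 1.29% higher and 1.40% lower). edgeR called 64 and 53. The doses are not known here, so the values of these compounds are set side by side and not compared. YDJC-203 was at 22.5%, 22.1% and 24.1% with MC4455 and at 21.7%, 25.4% and 23.6% with MC4491, below all DMSO libraries (limma adjusted p = 0.000667 and 0.00121, the second without a call by edgeR, adjusted p = 0.0876). FNTA-205 was at 17.8%, 13.6% and 15.7% and at 14.6%, 14.0% and 17.8%, above the 3 DMSO libraries. TBCK-206 fell with MC4491 to 14.8%, 13.6% and 13.2% (-1.24, limma adjusted p = 0.000122, edgeR adjusted p = 1.18e-05). SLCO4A1-208, from an organic anion transporter gene, rose from 26.5%, 22.9% and 20.2% to 34.3%, 36.1% and 38.2% with MC4455 (0.87, limma adjusted p = 0.000708, edgeR adjusted p = 0.00399) and to 35.7%, 29.5% and 33.5% with MC4491 (0.68, limma adjusted p = 0.0191, edgeR adjusted p = 0.0554).

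DNTTIP2-201 fell by limma from a mean of 49.0% in DMSO to 27.7% with MC4455 and 30.5% with MC4491 (adjusted p = 0.000752 and 0.00823), and edgeR made neither call (adjusted p = 0.0874 and 0.261). TYW1-202, from a gene of wybutosine tRNA modification, was listed at 0 in DMSO and had 3.38%, 17.7% and 3.82% with MC4491 (limma adjusted p = 0.0494, lost in 8 of 14 alternatives, edgeR adjusted p = 3.05e-10). Every other treated group was above 0 as well, from a mean of 3.03% with GSK-LSD1 to 10.4% with MS023. Without DMSO A, B or C, MC4455 had 41, 33 or 32 used more, without MC4455 B or C it had 45 or 39, and without MC4455 A, B or C it had 63, 49 or 46 used less. Without DMSO A, B or C, MC4491 had 29, 16 or 25 used more, and without MC4491 A, B or C it had 45, 58 or 48 used less.

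Decay transcripts of genes for splicing factors, the proteins best known for regulating themselves in this way, were called at rates that can be read against the backgrounds given above. Of 18 in SR protein genes, 1 was called with PRT220 (5.56%), as used more, and 3 with both compounds (16.7%), 2 as used more and 1 as used less. Their median usage differences were -0.04 and -0.13, beside -0.01 and 0.04 for all transcripts. SRSF6-202 (ENSG00000124193, chr20:43457928-43461334, plus strand) had 8.81%, 10.1% and 9.92% in DMSO, 12.9%, 13.1% and 13.1% with PRT220 and 14.1%, 13.1% and 15.5% with both. The groups did not overlap, and the limma adjusted p was 0.0412 with PRT220, lost in 11 of 14 alternatives, and 0.00467 with both (edgeR adjusted p = 0.0175). SRSF7-208 (ENSG00000115875, chr2:38744918-38751352, minus strand) had 22.9%, 22.9% and 20.7% in DMSO and rose with both compounds to 28.3%, 28.6% and 28.4% (0.45, SE 0.113, limma adjusted p = 0.00468, edgeR adjusted p = 0.000537). With PRT220 alone it had 25.1%, 27.7% and 26.4%, which was not called (limma adjusted p = 0.0789).

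TRA2B-206 (ENSG00000136527, chr3:185917330-185938029, minus strand), from the gene of the splicing activator TRA2-beta, moved the other way. It had 9.70%, 10.2% and 13.2% in DMSO, and 5.06%, 5.22% and 6.36% with MC4491 (-1.05, limma adjusted p = 8.94e-06, edgeR adjusted p = 0.0310). It was at 7.32%, 3.92% and 6.54% with MC4455 and at 5.61%, 9.08% and 4.10% with MS023+GSK-LSD1, where limma called it (adjusted p = 2.57e-05 and 0.000135) and edgeR did not (adjusted p = 0.0560 and 0.109). With both PRT220 and GSK-LSD1 it was called by limma at 0.0362, which 8 of 15 alternatives lost.

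Among 21 decay transcripts of hnRNP and PTB genes, PRT220 gave 1 call in each direction (9.52% against a background of 4.16%), and so did the combination (background 4.77%). HNRNPH1-218 (ENSG00000169045, chr5:179614181-179623169, minus strand), from the gene of a splicing regulator that binds G-runs, had 4.19%, 4.71% and 4.16% in DMSO, 2.41%, 2.7% and 2.16% with PRT220 and 1.81%, 2.30% and 2.12% with both compounds. The usage differences were -0.91 (limma adjusted p = 0.00316, edgeR adjusted p = 2.13e-05) and -1.15 (limma adjusted p = 0.000157, edgeR adjusted p = 1.79e-08). It fell as well with MC4455, to 3.16%, 2.28% and 2.43%, and with MC4491, to 2.32%, 2.24% and 2.17%. With MS023 its libraries were at 5.19%, 5.22% and 5.27%, and no call was made. HNRNPH1-219, called used more with limma in every treated group, rests on DMSO B, where it was listed at 0, and edgeR gave adjusted p-values of 0.536 to 1.00.

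Of 46 decay transcripts of other splicing regulators and snRNP proteins, PRT220 changed 1 (2.17%), and downward: U2AF2-203, at 0.513% of its gene. edgeR called 2 of the 46 with PRT220, and 5 had an unadjusted limma p below 0.05. DDX5-218, from an RNA helicase gene, fell with MS023+GSK-LSD1 from 40.2%, 36.6% and 38.1% to 27.9%, 31.3% and 28.7% (-0.51, limma adjusted p = 1.22e-06, edgeR adjusted p = 0.0291), and QKI-204 from 51.8%, 51.0% and 49.3% to 43.4%, 43.7% and 39.1% by limma (adjusted p = 0.00195, edgeR adjusted p = 0.0521). RBM39-216 had 1.77%, 3.06% and 3.58% in DMSO and was listed at 0 in all 3 PRT220 libraries, without a call there. No decay transcript at the level used was found for MDM4, TRA2A, UPF3A, PRMT5 or KDM1A.

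The genes whose symbols begin as those of ribosomal proteins do had 40 decay transcripts, of which PRT220 and the combination each called 2 more and 1 less, 7.50% against backgrounds of 4.16% and 4.77%. Their median usage differences were -0.10 and -0.35, beside -0.01 and 0.04 for all transcripts. The symbol rule also took the kinase genes RPS6KA1 and RPS6KA5, and RPS6KA1-202 is the fall with PRT220. RPL13A-214 had 1.11%, 1.24% and 1.34% of its gene in DMSO, 2.30%, 2.26% and 2.45% with PRT220, 1.25%, 1.22% and 1.19% with GSK-LSD1 and 2.07%, 2.42% and 2.42% with both. The 6 libraries that received PRT220 lay above the other 6 of these groups, and the call was firmer by edgeR (adjusted p = 9.34e-06) than by limma (0.93, adjusted p = 0.0382, lost in 9 of 14 alternatives). RPL21-208 fell with MS023+GSK-LSD1 from a mean of 38.1% to 19.9% by limma (adjusted p = 5.00e-08) but not by edgeR (adjusted p = 0.119).

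The smaller lists are read against the same backgrounds of 4.16% with PRT220 and 4.77% with the combination. Of 16 decay transcripts of arginine methyltransferase and LSD1 complex genes, limma called 1 with PRT220, MTAP-209 as used less (6.25%, edgeR adjusted p = 1.00), and 0 with the combination, where 1 had an unadjusted p below 0.05 and edgeR called 0. Of 21 in genes of p53 regulation and DNA repair, limma called 0 with PRT220 (2 at an unadjusted p below 0.05, and 1 call by edgeR). Of 18 in genes of the decay pathway itself, PRT220 and the combination each gave 2 calls by limma (11.1%), CNOT7-206 and CNOT1-211 as used more, both below 1% of their genes, where edgeR called 0 and 1. CNOT1-211 was listed at 0 in DMSO C, and its sign turned when that library was left out.

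The machinery of the pathway was read at the level of whole genes with edgeR, where 24.9% of 16640 genes were called with PRT220 and 46.5% with both compounds. Of 16 decay factors, 1 was higher and 4 lower with PRT220. UPF2, an adaptor of UPF1, fell by 0.28 (edgeR adjusted p = 0.000107), SMG9 by 0.27 (0.000213), PNRC2 by 0.25 (0.000430) and SMG8 by 0.18 (0.0364), while the helicase gene DHX34 rose by 0.29 (6.40e-05). With both compounds 4 were higher, MOV10 (0.73), SMG6 (0.48), SMG1 (0.26) and UPF3A (0.23), and 9 lower, with UPF2 at -0.39 (edgeR adjusted p = 5.44e-07). GSK-LSD1 alone raised SMG6, the endonuclease of the pathway, by 0.49 (edgeR adjusted p = 3.62e-08) among 2 higher and 5 lower (background 32.6%). UPF1 itself was at 188 CPM in DMSO and 195 with PRT220 (0.05, edgeR adjusted p = 0.422) and was called against DMSO in none of the 7 treated groups. MC4455 had 2 higher and 8 lower (background 37.6%), MC4491 3 and 5 (30.7%) and MS023+GSK-LSD1 4 and 7 (48.4%), each a mixture of directions. With MS023 alone, where 2.25% of all genes were called, edgeR and DESeq2 each called 0 of the 16, and 2 had an unadjusted edgeR p below 0.05.

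Of 9 exon junction complex genes, PRT220 changed 3, all upward, where 24.9% of all genes were called. They were SAP18 by 0.26, RBM8A by 0.23 and ACIN1 by 0.14 (edgeR adjusted p = 0.000456, 0.000331 and 0.00946). Other groups differed in direction, with 2 higher and 2 lower with PRT220+GSK-LSD1 (background 46.5%). MS023+GSK-LSD1 had 2 and 3 (48.4%), and MC4455 (37.6%) and MC4491 (30.7%) each had 0 and 3. GSK-LSD1 (32.6%) and MS023 (2.25%) each had 1 higher and 0 lower. Of 19 genes of termination and mRNA decay, 5 were higher and 2 lower with PRT220 (background 24.9%). The deadenylase gene CNOT8 (0.33, edgeR adjusted p = 6.06e-05) and the decapping gene EDC4 (0.28, edgeR adjusted p = 1.64e-05) were among the 5. Of 14 genes known as targets of the pathway 7 were analysed here, and 3 of them were called with PRT220 (background 24.9%). All 3 were lower: UPP1 by 0.94 (edgeR adjusted p = 1.32e-05), ATF4 by 0.27 (0.00796) and TBL2 by 0.26 (0.000980). With both compounds 4 were called (background 46.5%), all lower, GADD45A by 0.70 (edgeR adjusted p = 3.26e-05) and ATF4 by 0.55 (2.48e-06) among them. ATF4 and GADD45A are stress-response genes that other signals are known to control as well.

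As a total, decay transcripts made up 2.40% ± 0.025 (SD, n = 3) of the paired counts in DMSO and 2.42% ± 0.016 with PRT220, a difference of 0.020 points (exact permutation test, two-sided p = 0.2). With GSK-LSD1 the share was 2.33% ± 0.002, with MS023 2.35% ± 0.023 and with MS023+GSK-LSD1 2.34% ± 0.028, none of which overlapped DMSO (p = 0.1 each by the exact permutation test, the smallest that 3 against 3 allow). PRT220+GSK-LSD1 had 2.36% ± 0.018, MC4455 2.38% ± 0.015 and MC4491 2.37% ± 0.015, and these overlapped DMSO. No group differed from DMSO by more than 0.066 points. The sum is weighted to a few abundant forms such as RPS3-218. The median share of the gene over the decay transcripts gave the opposite sign for PRT220 (-0.123 points), GSK-LSD1 (0.008) and MS023 (0.007).

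Retained-intron transcripts, the other class of non-productive form at the same level, made up 4.92% ± 0.0548 of the paired counts in DMSO and 5.84% ± 0.240 with MC4455, 5.63% ± 0.137 with MC4491 and 5.62% ± 0.450 with PRT220+GSK-LSD1 (SD, n = 3). They made up 5.48% ± 0.492 with MS023+GSK-LSD1, 5.24% ± 0.287 with PRT220, 5.14% ± 0.118 with GSK-LSD1 and 5.05% ± 0.406 with MS023. The log2 ratio of decay to retained-intron totals differed from DMSO by -0.26 with MC4455, -0.21 with MC4491 and -0.21 with PRT220+GSK-LSD1. It differed by -0.19 with MS023+GSK-LSD1 and -0.10 with GSK-LSD1 (exact permutation p = 0.1 for each of these groups). With PRT220 it differed by -0.08 (exact permutation p = 0.3) and with MS023 by -0.07 (exact permutation p = 0.4). In transcript calls, 9733 retained-intron transcripts were tested. MC4455 had 333 used more (3.42%, against 1.57% of all transcripts) and 34 less (0.349% against 1.73%). MC4491 had 247 (2.54% against 1.29%) and 30 (0.308% against 1.40%), and PRT220+GSK-LSD1 426 (4.38% against 2.29%) and 88 (0.904% against 2.48%). MS023+GSK-LSD1 had 155 (1.59% against 1.34%) and 64 (0.658% against 1.48%). With GSK-LSD1 41 (0.421% against 0.513%) and with MS023 24 (0.247% against 0.406%) were used more. The background had not passed the filter on level.

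**Figure D5:**
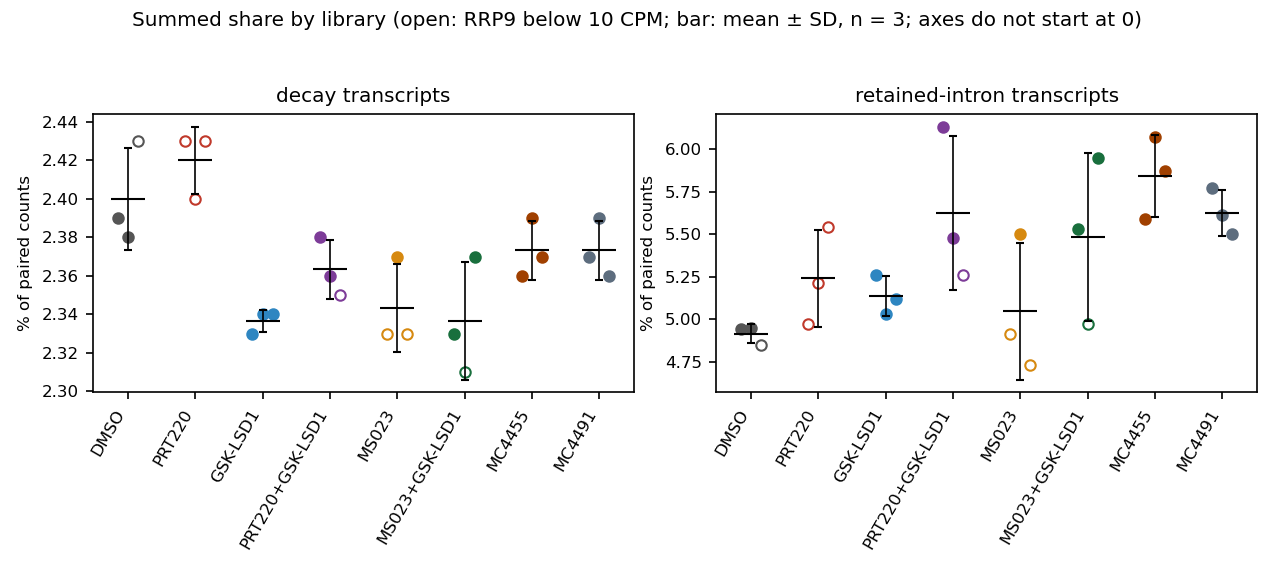
The summed share of decay transcripts (left) and of retained-intron transcripts (right) among paired counts (%, y axes not starting at 0) in each library, open where RRP9 was below 10 CPM, with the mean ± SD (n = 3) of each group. Decay transcripts stayed between 2.31% and 2.43% in all 24 libraries.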

How the data were processed

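The 2 tables used were deposited by the authors, one of transcripts and one of genes, both holding estimated counts (expected counts that need not be whole) for 24 libraries. Per the submitters' processing notes, Salmon 1.2.1, STAR 2.7.3a, R 4.0.0 and DESeq2 1.28.1 were used with GRCh38; which tool made which table, and the annotation release behind them, are not given in the sources used here. Salmon-type estimates divide reads among overlapping transcripts, which adds error that counting intervals do not cover.

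Transcript identifiers without version were paired with GENCODE release 29. The members, gene lists and tests were chosen with earlier results of these data known. Usage was tested with limma 3.58.1 (voom, diffSplice, R 4.3.3) on rounded counts of all 24 libraries, with p-values adjusted over 74228 transcripts by Benjamini-Hochberg and a threshold of 0.05. edgeR 4.0.16 (diffSpliceDGE) and fits with other filters, scaling, covariates or libraries were alternatives, 2 sets of which were chosen after seeing the data. Gene levels were tested with edgeR's quasi-likelihood test over 16640 genes, with DESeq2 1.42.0 as the alternative. Library totals of 32495446 to 61090593 counts set the precision. Summed shares were compared with exact permutation tests, which with 3 against 3 cannot go below 0.1. Floors for values of 0 are 3 counts over a group and cover counting error only. No pair of replicates was identical (0 of 24 pairs). Decay transcripts were named where a call came with shares that did not overlap and a gene mean of at least 5 CPM in both groups, ranked by the difference in share (10 in each direction for the first 3 comparisons, 5 for the others), plus up to 3 from each gene list. A few single-gene results are not reported here.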

Additional observations from a re-analysis of the deposited data

Results flagged for a closer look

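The effect of PRT220 on usage differed with and without GSK-LSD1, by the interaction term of the limma fit, for 10 named decay transcripts. Of 19 alternatives, the call was lost in 14 for HRH2-203, in 13 for TWSG1-203, TTC5-202 and NIPA1-204, in 12 for RC3H2-210 and GTPBP10-203, in 9 for CCNF-201 and in 4 for C12orf29-202, RIOX2-209 and FAM160B2-203. No edgeR interaction test called any of them (adjusted p = 0.237 to 1.000). In the values below, the interaction is followed by the PRT220 effect without and then with GSK-LSD1, all in log2 usage.

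C12orf29-202 had an interaction of -6.96 (limma adjusted p = 0.000966, effects 4.39 and -2.56), RIOX2-209 one of -4.48 (adjusted p = 0.000620, 3.47 and -1.02) and FAM160B2-203 one of 3.39 (adjusted p = 0.00342, 0.58 and 3.96). TWSG1-203 had -5.43 (adjusted p = 0.0495, 0.96 and -4.47), RC3H2-210 had -1.77 (adjusted p = 0.0433, 0.50 and -1.26) and TTC5-202 had -1.42 (adjusted p = 0.0380, -0.02 and -1.45). NIPA1-204 had 3.93 (adjusted p = 0.0498, -3.64 and 0.37), CCNF-201 had 1.48 (adjusted p = 0.0359, -0.06 and 1.42), GTPBP10-203 had 1.43 (adjusted p = 0.0495, -0.41 and 1.02) and HRH2-203 had 0.70 (adjusted p = 0.0399, -0.38 and 0.32).

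TTC5-202 held 9.62% of its gene in DMSO, 8.86% with PRT220, 8.70% with GSK-LSD1 and 3.93% with both, and FAM160B2-203 held 8.34%, 11.6%, 2.09% and 8.62%. HRH2-203, from a histamine receptor gene, held 17.6%, 14.0%, 16.3% and 19.6%. Spread between libraries was wide where the interaction was largest. C12orf29-202 held 2.33% (SD 2.15) in DMSO and 8.75% (SD 1.83) with PRT220. RIOX2-209 held 3.70% (SD 3.86) and 5.99% (SD 0.506), and TWSG1-203 held 5.91% (SD 4.49) and 11.1% (SD 8.62). The 2.09% of FAM160B2-203 with GSK-LSD1 had an SD of 2.35. The log2 sizes printed for these transcripts are therefore imprecise. The shares here are group means of 3 libraries, and the cause of the differences was not tested.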

How the results depend on the processing

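Of 4329 alternative values for single decay transcripts, 3429 kept their side of the threshold, 877 lost the call and 13 gained one. Another 10 turned sign with a call in the main or the alternative fit. A turn of sign without a call in either fit was counted among the 3429. These also include values of transcripts that the main fit did not call. Those that turned were SNRPD3-203 (-0.12 to 4.11 with 1 library left out, lowest without GSK-LSD1 B), RPS3-204 (2.59 in the libraries with RRP9 under 10 CPM), CLNS1A-205 (-3.76 to 0.29, highest without GSK-LSD1 C) and CNOT1-211 (with PRT220 -0.01 by edgeR and -0.67 to 4.13 with 1 library left out; with both compounds -0.35 in the libraries with RRP9 at 10 CPM or more and -0.29 to 4.51; with MC4491 -0.01 in those libraries and -0.01 to 4.79; in the interaction -4.45 to 0.34, each turned by leaving out DMSO C). Depth limits transcripts near 1 CPM, where an estimate of 0 in 1 DMSO library can carry a call.

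Numbers are given as used more and used less. Apart from the ranges with 1 library left out, only counts that moved past a set fold limit from the main fit are listed. A count not listed stayed within that limit or its fit could not be made. The transcripts tested change with the filter and the libraries. The shares of all transcripts called in these fits are not given, so these counts cannot be read against the backgrounds above. By edgeR's diffSpliceDGE the counts were 53 and 58 for PRT220, 2 and 5 for GSK-LSD1, 57 and 75 for PRT220+GSK-LSD1, 1 and 2 for MS023, 19 and 32 for MS023+GSK-LSD1, 31 and 33 for MC4455, 17 and 36 for MC4491, 6 and 10 for PRT220+GSK-LSD1 against PRT220, 26 and 25 against GSK-LSD1, and 2 and 1 for the interaction. By origin of the stop codon with PRT220, edgeR gave 18 used less in the inserted-exon class, 20 and 24 in the changed-frame class and 4 and 3 in the shared-stop class.

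Within the low-RRP9 libraries PRT220 had 23 used more, PRT220+GSK-LSD1 10 and 28, MS023 3 and 8, MS023+GSK-LSD1 2 and 8, and PRT220+GSK-LSD1 against PRT220 11 and 5. In the libraries with RRP9 at 10 CPM or more, GSK-LSD1 had 14 used more, PRT220+GSK-LSD1 57 and 86 and MS023 9 and 8. The RRP9 term gave 22 used less for PRT220+GSK-LSD1 against PRT220, 16 used less for the interaction, and 6 transcripts called alike in both GSK-LSD1 comparisons (3 without it). A filter of 1 CPM in 3 libraries gave 11 and 16 for GSK-LSD1, 15 used more for MS023 and 3 and 2 for the interaction. No filter gave 61 and 75 for GSK-LSD1, 57 and 67 for MS023, 140 used less for MC4491, 51 and 94 for PRT220+GSK-LSD1 against PRT220, 73 and 96 against GSK-LSD1, and 46 and 56 for the interaction. Fitting the compared groups alone gave 21 used less for GSK-LSD1, 15 and 11 for MS023, 35 used more for MS023+GSK-LSD1, 33 used more for MC4491 and 6 used more for the interaction.

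No shared deviation of same-letter libraries was seen. Their deviations had a median correlation of 0.00408 (-0.194 to 0.154), beside -0.00311 for libraries of different letters, and 10 of 24 libraries correlated best with their own letter. This cannot show whether the letters pair the libraries, because a small shared effect could be missed. With the letter as a replicate block, the count used more was 10 for GSK-LSD1, 11 for MS023, 30 for MS023+GSK-LSD1 and 33 for MC4491, and the interaction had 12 and 8.

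Leaving out 1 library at a time gave 53 to 84 used more and 60 to 107 used less for PRT220, 6 to 25 and 13 to 37 for GSK-LSD1, 54 to 81 and 67 to 141 for PRT220+GSK-LSD1, 9 to 33 and 10 to 31 for MS023, 18 to 59 and 57 to 98 for MS023+GSK-LSD1, 32 to 59 and 46 to 99 for MC4455, 16 to 50 and 45 to 90 for MC4491, 6 to 22 and 13 to 37 for PRT220+GSK-LSD1 against PRT220, 25 to 43 and 28 to 43 against GSK-LSD1, and 9 to 24 and 10 to 32 for the interaction. At gene level the 16 decay factors, 9 exon junction complex genes, 19 genes of termination and mRNA decay and 7 known targets were counted together. Of these, 0 to 2 were called for MS023 (2 with all libraries, RBM8A and the known target CDKN1A, where 2.25% of all genes were called). For PRT220+GSK-LSD1 against GSK-LSD1, 9 to 11 were called (16 with all libraries, where 15.3% of all genes were called).

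The difference in summed share for PRT220 was -0.008 points in the low-RRP9 libraries. As the median share of the gene it was -0.123 (exact permutation p = 0.2), that for GSK-LSD1 was 0.008 (exact permutation p = 0.8) and that for MS023 was 0.007 (exact permutation p = 0.9). Without the 10 most abundant decay transcripts the MC4455 difference was 0.001. The cause of these changes was not tested.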
